A study of Mus musculus with 24 samples.

Results

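Cdx2, a homeodomain protein that specifies intestinal epithelium, was mapped across the genome in mouse colon organoids, and the account here covers 1 stretch of chromosome 10 that holds Il22, its duplicate Iltifb, Ifng and Mdm1. A consensus region was made by merging the peaks of the 12 Cdx2 libraries that overlapped by at least 1 bp, and it was counted to the locus when a peak summit lay inside a body of these genes or within 50 kb of it. This gave 5 of 61454 regions in all. The locus was chosen by measured values, namely peaks in proximal and not in distal libraries and a high rank of their fold enrichment. These values are therefore given as a description, with no test. In proximal colon organoids, a Cdx2 peak among the strongest of each library lay between Il22 and Iltifb on either side of the centre of the duplication, and none was called there in distal organoids. In the reference genome the sequence under both peaks was letter for letter the same, so the 2 peaks could not be read as separate sites. No region lay within 50 kb of Ifng, and 1 weak region lay upstream of Mdm1.

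The 12 libraries formed 4 groups of 3 biological replicates. Organoids came from the proximal colon (its first 1 cm) or the distal colon (the last 1 cm of the descending colon) of 3 female mice that were 8 weeks old, and had been grown for 4 months in WENR-plus medium, which supplies Wnt3a, EGF, Noggin and R-spondin 1. The WENR-plus groups stayed in it. The WENR-minus groups spent 2 days in it after plating, followed by 3 days in medium lacking the 4 factors. All groups carried the same alleles, a heterozygous Cre-inducible BrafV600E and a heterozygous tdTomato reporter, and no Cre was stated for the organoids used here. Chromatin was precipitated with an antibody to Cdx2 by ChIPmentation, in which a transposase tags bead-bound chromatin with sequencing adapters. Colon organoids are grown from epithelial stem cells, not from the lymphocytes that make these cytokines in the gut. They were assayed in bulk, and neither RNA nor accessibility of this locus was analysed here.

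Interleukin-22 is made by innate lymphoid cells and T cells and acts on epithelial cells through a receptor of Il22ra1 and Il10rb, which signals through Jak1, Tyk2 and Stat3 and turns on antimicrobial and repair genes such as Reg3b and Reg3g. Iltifb is a mouse gene duplicate of Il22. Ifng encodes interferon-gamma, the other cytokine gene of this stretch, and Mdm1 encodes a microtubule-binding protein of centrioles. Cdx proteins bind AT-rich sites with the core TTTAT.

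The sequence at the peak summits is shown first because the rest of the locus turns on it. Both windows are from the RefSeq GRCm38.p6 sequence, the assembly of mm10, and hold 241 bases. The upper one is read on the plus strand and the lower one on the minus strand, and capitals mark the match to the Cdx2 motif. The motif was searched on both strands as TTTATGA or TTTATGG or TTTATTA or TTTATTG, and the match here is TTTATGG on the opposite strand.
Il22 side, chr10:118221024-118221264, plus strand: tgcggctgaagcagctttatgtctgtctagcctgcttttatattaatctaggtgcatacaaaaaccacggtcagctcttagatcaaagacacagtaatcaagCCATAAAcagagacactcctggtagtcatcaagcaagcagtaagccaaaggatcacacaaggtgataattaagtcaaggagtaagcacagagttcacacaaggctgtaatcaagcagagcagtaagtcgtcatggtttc
Iltifb side, chr10:118278207-118278447, minus strand: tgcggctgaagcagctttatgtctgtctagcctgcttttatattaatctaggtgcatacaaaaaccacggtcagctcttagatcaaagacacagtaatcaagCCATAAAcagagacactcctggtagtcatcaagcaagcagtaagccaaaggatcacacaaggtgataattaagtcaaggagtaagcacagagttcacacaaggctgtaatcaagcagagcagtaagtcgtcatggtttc
No base differed between the windows, and the motif stood at the same place in both.

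The locus is an inverted repeat. Its left arm, from 118173998 to 118247373 on chromosome 10, aligned to the right arm, from 118252097 to 118324173, over 68491 columns at 96.6% identity. Il22 (ENSMUSG00000074695.3, plus strand, 118204942 to 118210047) lies in the left arm. Iltifb (ENSMUSG00000090461.2, minus strand, 118289629 to 118295038) lies in the right one. Of 5044 aligned bp of the gene bodies, 96.9% were identical, a value that counts substitutions only. The values for the arms count gap columns as differences too. On that measure the aligned pieces over Il22 were 94.6% and 95.2% identical. The inner piece of each arm, about 35.2 kb long, was 99.2% identical over 35274 columns with 168 mismatches, against 93.8% over the outer pieces. The Cdx2 regions lay in this inner piece, which faces the other copy across a gap of 4.72 kb.

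**Figure D1:**
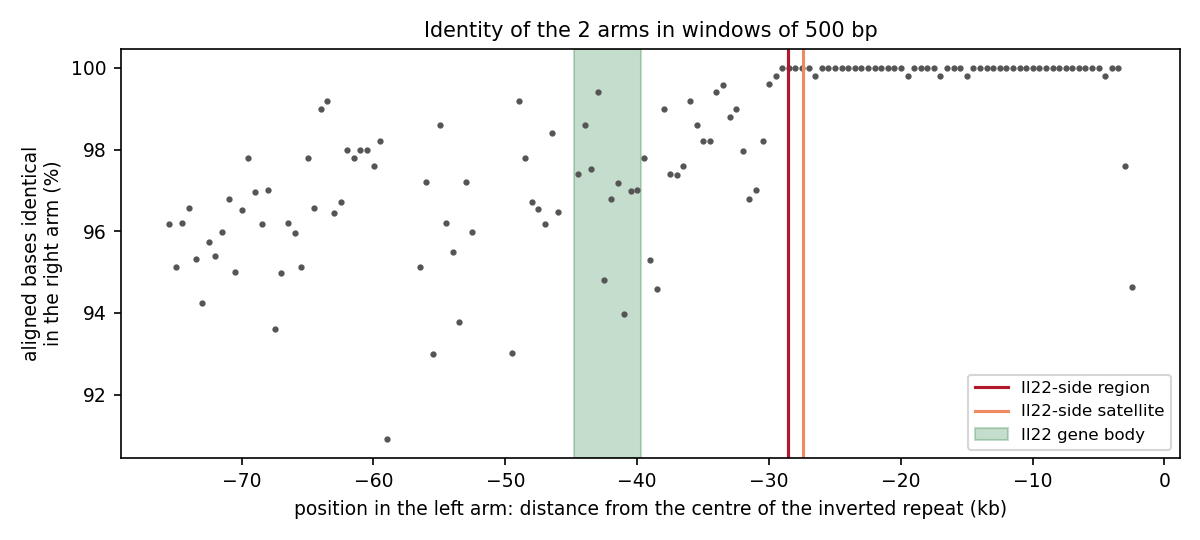
Share of aligned bases of the left arm that were identical in the right arm (y axis, percent, substitutions only) in windows of 500 bp, against the distance from the centre of the inverted repeat (x axis, kb). The vertical lines mark the median summits of the Il22-side region and its satellite, which lie in windows at 100%, while the windows over the Il22 gene body (green) lie below 100%.

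On the Il22 side the stronger region spanned 118220567 to 118221716 (1150 bp). It was intergenic, 11.1 kb past the end of Il22 and 16.2 kb from its start site. On the Iltifb side the matching region spanned 118277685 to 118278930 (1246 bp), also intergenic, 11.3 kb past the end of Iltifb and 14.9 kb from its nearest start site. The median summits of the 2 regions were 57.2 kb apart. Each had a weaker neighbour towards the centre, called a satellite here. The Il22-side satellite spanned 118222045 to 118222814 (770 bp), with its summit 1.25 kb from that of the stronger region. The Iltifb-side satellite spanned 118276741 to 118277440 (700 bp), 1.21 kb from its neighbour.

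**Figure D2:**
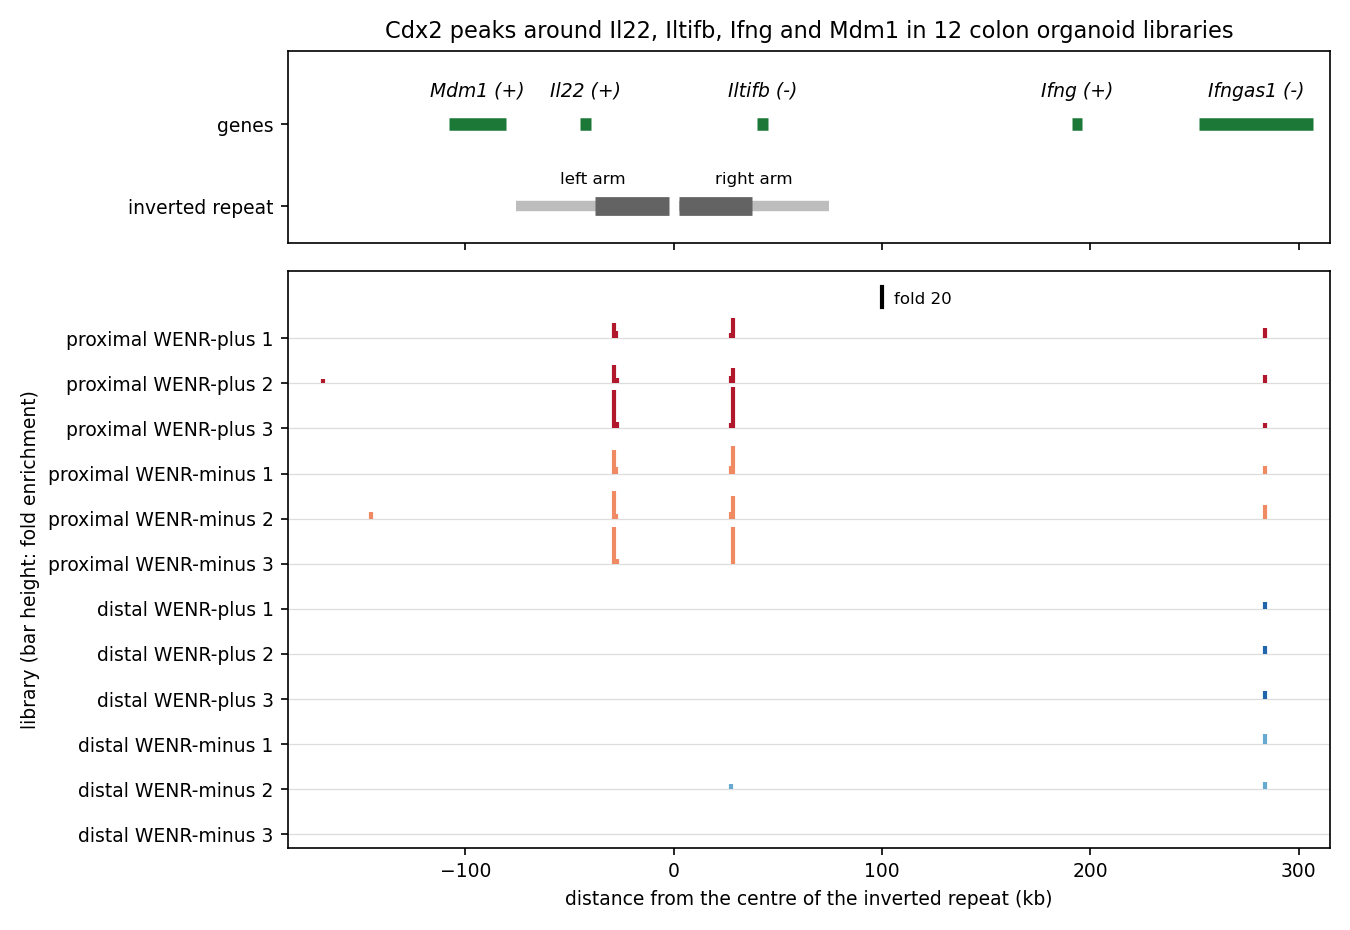
Map of the locus, with the x axis giving the distance in kb from the centre of the inverted repeat. Upper panel, gene bodies with their strand, and the 2 arms of the repeat in grey (inner pieces dark). Lower panel, 1 row per library with a bar at each peak summit whose height is the fold enrichment (scale bar, fold 20). The tall bars stand on both sides of the centre in the 6 proximal rows, with folds of 15.2 to 41.1, and the 6 distal rows hold only 1 low bar there, of fold 5.13. The peak over Ifngas1, outside the locus, is in 10 rows.

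Fold enrichment is the pileup at the summit over the local background of the matched input, as the peak caller gave it. At the Il22-side region it was 15.2, 18.2 and 38.5 in the proximal WENR-plus libraries of replicates 1, 2 and 3, and 23.5, 27.6 and 37.0 in the WENR-minus libraries. At the Iltifb-side region the fold enrichment was 19.97, 15.8 and 41.1 in WENR-plus, and 27.1, 23.0 and 36.3 in WENR-minus. Replicate 3 was the highest in both media at both regions. The 6 distal lists held no peak at either.

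Because fold and list length differ between libraries, each peak was also given the percentile of its fold among all peaks of its own library. The Il22-side region stood at 97.2, 98.1 and 99.7 in WENR-plus and at 99.0, 99.3 and 99.8 in WENR-minus. The Iltifb-side region stood at percentiles 98.8, 97.1 and 99.7 in WENR-plus and 99.3, 98.7 and 99.8 in WENR-minus. In the shortest proximal list, WENR-minus replicate 3 with 11409 peaks, the regions ranked 23 and 26 by fold. In the longest, WENR-plus replicate 2 with 42192 peaks, they ranked 817 and 1216. The mean percentile over the 6 proximal libraries was 98.8 ± 1.01 (SD, n = 6) for the Il22 side and 98.9 ± 0.992 for the Iltifb side. The median fold of a whole list was 5.02 to 6.57.

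**Figure D3:**
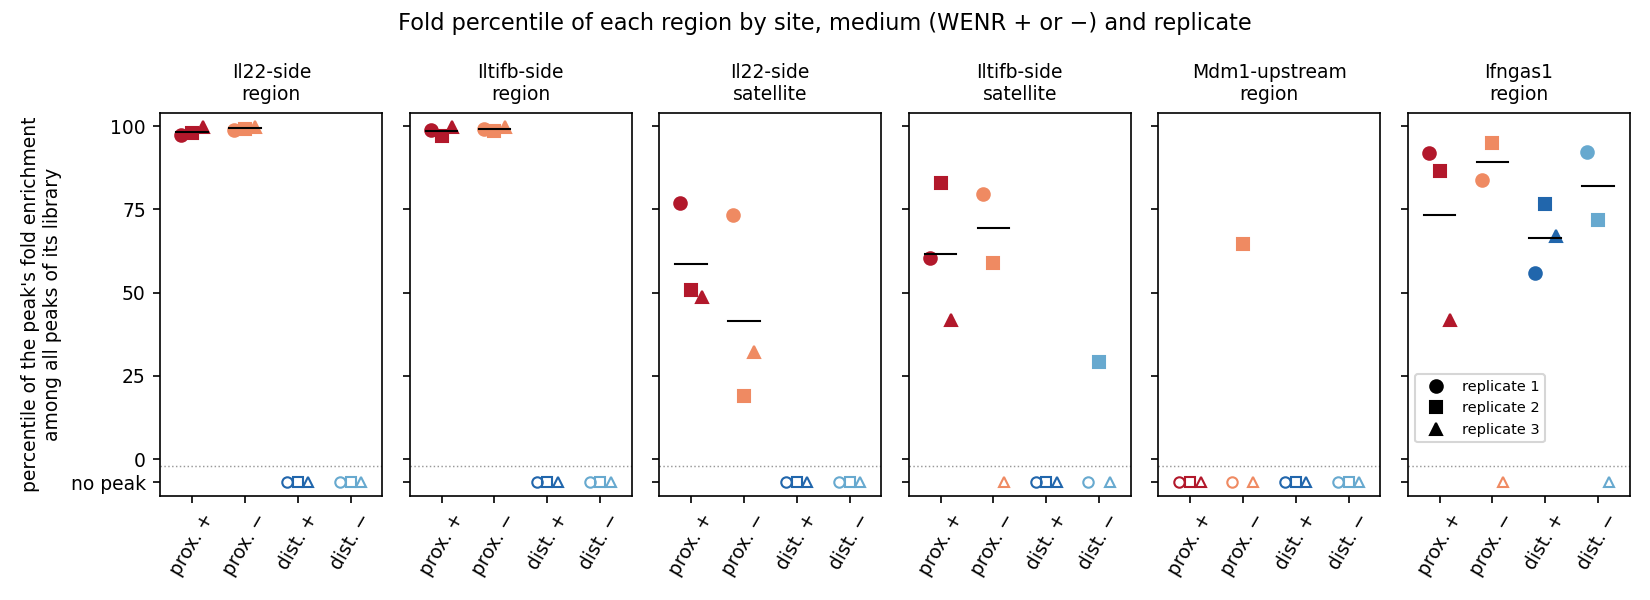
Percentile of the fold enrichment among all peaks of the same library (y axis) for 6 regions, by colon site and medium (x axis, proximal or distal, WENR-plus as + and WENR-minus as −). Filled symbols are single libraries with the shape giving the replicate number, black lines are group means, and open symbols on the lowest line are libraries without a peak. The stronger region of each side lies at 97.1 or above in all 6 proximal libraries with no distal peak, the satellites spread from 18.98 to 82.98, and the Ifngas1 region is filled in groups of both sites.

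Among the consensus regions called in at least 2 libraries, 640 of 35518 (1.80%) had a peak in every proximal and no distal library. The locus held 3 of these 640, the stronger region of each side and the Il22-side satellite. Ranked by mean fold percentile among the 640, whose median was 63.2 (quartiles 52.3 and 75.9), the Iltifb-side region was number 3, the Il22-side region number 4 and the Il22-side satellite number 502. Ranks 3 and 4 belong to 1 sequence counted at 2 places. Within 1000 kb of the centre of the repeat there were 46 regions, and no further one was called in every proximal and no distal library.

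**Figure D4:**
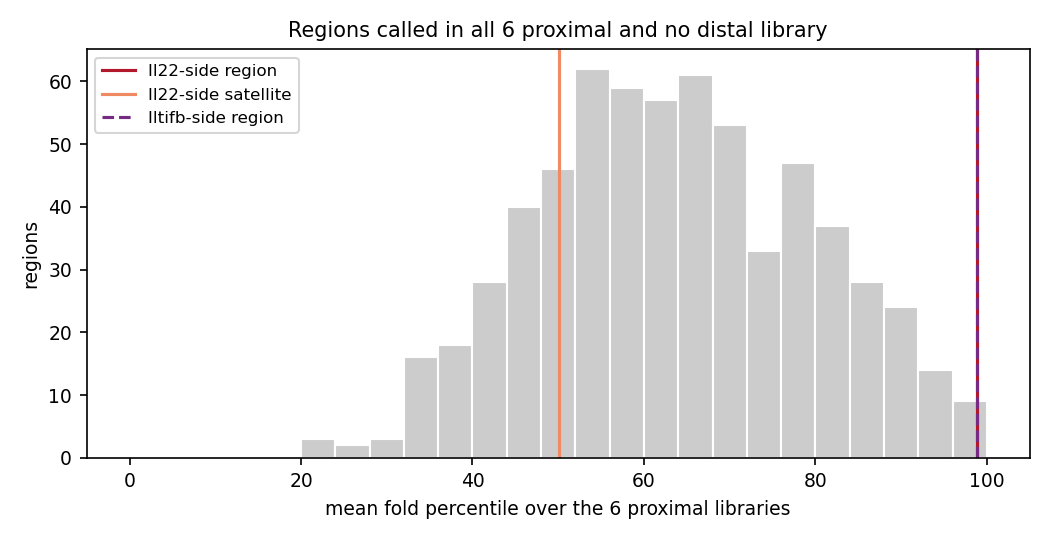
Number of regions (y axis) by mean fold percentile over the 6 proximal libraries (x axis), for the 640 regions called in every proximal and no distal library. The Il22-side and Iltifb-side regions (98.8 and 98.9, lines nearly on top of each other) lie at the upper end, and the Il22-side satellite (50.1) lies below the median of 63.2.

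A missing peak says only that a library did not pass the limit of the peak caller at that place. Distal lists were shorter as a group, with 5608 to 21040 peaks against 11409 to 42192 in proximal libraries, and differences in library depth were not tested as a part of the contrast. In the study's supplement, most distal libraries also had fewer reads and a lower share of reads in peaks than the proximal ones. These differences go with the colon site and were not adjusted for. The longest distal list, WENR-minus replicate 1 with 21040 peaks, was longer than 3 of the 6 proximal lists and held no peak in the locus. The pileup at a summit, the number of extended fragments stacked there, was estimated as the whole number that best met fold and p-value. Any scaling by the peak caller was not undone. The pileup was 55, 75 and 125 fragments at the Il22 side in WENR-plus and 105, 90 and 115 in WENR-minus. The weakest peaks of the distal lists had median pileups of 12 to 15 fragments. Pileups were not scaled between libraries of unlike depth. Whether depth or the limit of the peak caller accounts for the missing distal peaks was not tested.

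The 2 stronger regions could not be told apart by sequence. The 1150 bp of the Il22-side region aligned to 118277755 to 118278904, wholly inside the Iltifb-side region, with 0 substitutions and 0 gaps. The identical stretch ran on for 2707 bp and took in the satellite, and the median summit lay 837 bp from the nearest difference, farther than the libraries' size-selected fragments reach. Every 300-base word of the region also occurred in the other arm, so a 150-base read, or a pair of reads from a fragment of up to 300 bp, had 2 equal places to align. The reads stacked at the summits thus had 2 equal places in the reference, so such reads were kept in peak calling. The study's supplement lists totals of uniquely aligned reads, but how a read with 2 equal places was assigned was not given in the sources used here. Outside the locus the genome held no further full-length copy. It held 9 partial matches of at least 150 bp at 95% identity or more, all to the last part of the region (positions 946 to 1147 of 1150) and 0 over its summit at position 577. The longest match outside the locus was 449 bp, more than those positions span, so not every outside match lay within them. How many copies the mice themselves carried, and whether their sequence matched the reference, was not measured.

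The reads placed at the copies split close to evenly. With identical copies this share is set by how reads with 2 equal places were placed, whatever Cdx2 bound. It therefore does not compare binding at the copies. The share of the summed summit pileup placed at the Il22 side was 43.3% of 127 fragments in WENR-plus replicate 1 (95% Clopper-Pearson interval 34.5 to 52.4), the lowest of the 6 libraries. It was highest in WENR-minus replicate 2, at 54.5% of 165 fragments (46.6 to 62.3). All 6 intervals included 50%. These intervals treat the estimated pileups as counts, so their widths are approximate. They cover counting error only, since the fragments carried no molecular identifiers.

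**Figure D5:**
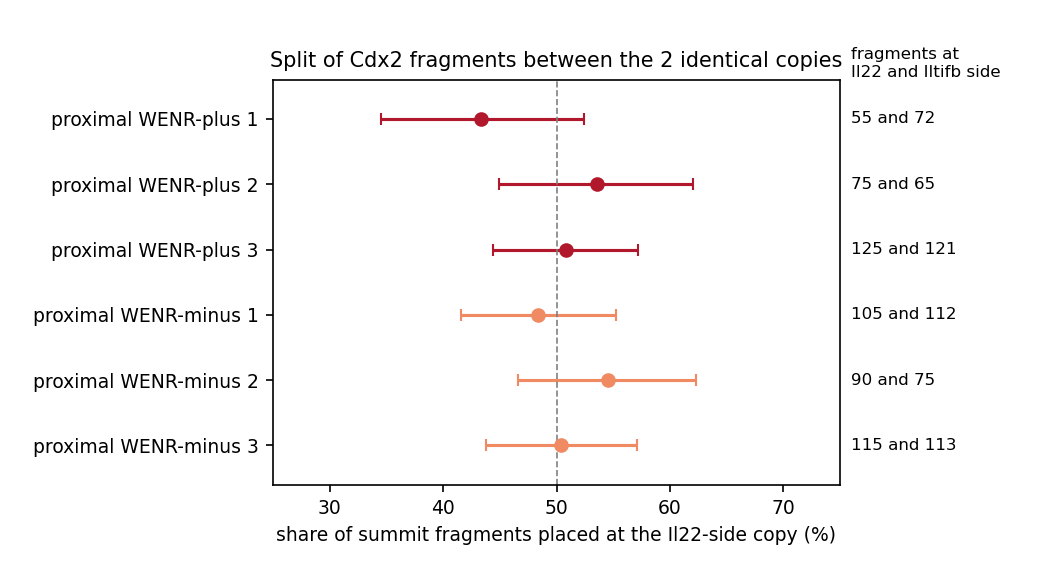
Share of the summit fragments of both copies that was placed at the Il22-side copy (x axis, percent) in the 6 proximal libraries (y axis), with 95% Clopper-Pearson intervals for counting error as bars and the fragments at the Il22 and Iltifb sides printed at the right. The points lie between 43.3% and 54.5%, and every bar crosses the dashed line at 50%. The copies are identical, so this is a share of placed reads and not a comparison of binding.

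The difference in fold percentile between the copies, Il22 side minus Iltifb side, was −1.53 and −0.367 in WENR-plus and WENR-minus of replicate 1. It was 0.949 and 0.599 in replicate 2, and −0.0441 and 0.0219 in replicate 3. The Il22 side was thus lower in both media of replicate 1 and higher in both media of replicate 2. Each replicate number was taken as a line, and its media were averaged. The mean was then −0.0618 ± 0.862 (SD, n = 3 lines). A two-sided exact sign-flip permutation test gave p = 0.75, and its smallest possible p is 0.25. On the log2 scale the fold differed by −0.03 ± 0.27. Since the copies are identical, the outcome was set by how reads were placed, and this test says nothing on the binding of separate sites. The sign of the mean rested on replicate 1, without which it was 0.382. Summits rest on the same placed reads and followed the same correspondence. Within a library, the summits of the 2 copies lay 1 to 47 bp apart after one was carried over to the other arm, with a median of 3 bp.

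The medium contrast did not choose the locus, but the fold percentile did, and with every value near the top of its list this measure left little room for a difference. At the Il22-side region the mean fold percentile was 98.3 ± 1.26 (SD, n = 3) in WENR-plus and 99.3 ± 0.425 (n = 3) in WENR-minus, a difference of −1.01 with p = 0.3 in a two-sided exact permutation test. At the Iltifb-side region it was 98.5 ± 1.33 and 99.3 ± 0.546, a difference of −0.718 with an exact permutation p = 0.6. The smallest p that 3 libraries against 3 allow is 0.1, so the design could not reach 0.05. WENR-plus was lower than WENR-minus in 3 of 3 replicate numbers at both regions, but the groups overlapped, and the 2 results are 1 sequence and not independent. Of the 6005 regions called in all 6 proximal libraries, 567 (9.44%) had every WENR-plus percentile above every WENR-minus one and 165 (2.75%) had every one below. The median difference over these 6005 regions was 4.11 percentile points, with quartiles of −1.31 and 13.4. Cdx2 peaks here were thus called with and without the 4 growth factors, and a difference between the media was not detectable on this measure with these libraries. With all lists reduced to 5608 peaks the differences became −7.81 and −7.27, each with an exact permutation p = 0.3.

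The satellites were much weaker, and their calls differed between the arms although their sequence did not. All 770 bp of the Il22-side satellite had the same letters in the other arm, over a stretch that overlapped the Iltifb-side satellite by 686 bp. At the Il22-side satellite the fold was 6.97, 5.17 and 6.26 in proximal WENR-plus and 6.45, 4.62 and 5.18 in WENR-minus. At the Iltifb-side satellite the fold was 5.70, 7.84 and 5.87 in WENR-plus and 7.25 and 6.37 in replicates 1 and 2 of WENR-minus, with no peak in replicate 3. The Iltifb-side satellite also had the only distal peak of the locus, of fold 5.13 and percentile 29.3 in WENR-minus replicate 2, where 17 fragments were stacked over a background of 2.51. The same sequence was thus called in every proximal and no distal library in one arm, and in 5 proximal and 1 distal library in the other. With the copies joined, it was called in 6 proximal and 1 distal library, and the stronger region alone kept 6 proximal and 0 distal. Mean fold percentiles over the libraries with a peak were 50.1 ± 22.6 (SD, n = 6) and 58.8 ± 20.9 (SD, n = 6), and satellite summits of the 2 copies lay 40 to 289 bp apart.

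A window of the Il22-side satellite is shown because it holds a pair of motifs next to each other, where the stronger region holds a single one. It is 151 bases long, in GRCm38.p6, with capitals marking a TTTATTA and a TTTATGG with a base between them.
Il22-side satellite, chr10:118222314-118222464, plus strand: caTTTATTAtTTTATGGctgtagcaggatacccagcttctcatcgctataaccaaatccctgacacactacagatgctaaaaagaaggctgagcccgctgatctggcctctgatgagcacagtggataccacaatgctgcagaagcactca

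The count of the searched motif words did not follow the strength of the peaks, over only 2 distinct sequences. The printed window of the stronger region also held TTTAT cores that these words leave out. The stronger regions each held 1 motif, 15 and 5 bp from the median summit, and it lay within 50 bp of all 6 summits on both sides. The Il22-side satellite held 4 motifs but none within 50 bp of any of its 6 summits, and the Iltifb-side satellite held 3, with 3 of 6 summits within 50 bp of one. Of all regions called in at least 2 libraries, 66.7% had a motif within 50 bp of the median summit, against 11.3% of windows moved by 1000 bp. The share was 63.8% of the 640 regions called in every proximal and no distal library, and 73.1% of those called in all 12. Among 1207 regions of 1000 to 1400 bp the median was 3 motifs, and 97.8% held at least 1. The RefSeq promoter windows of Il22, Iltifb, Ifng and Mdm1, each of 300 bp around the start, held 0 matches, while 14.4% of 32851 promoters held one. None of the 5 regions reached a start site of a member.

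Around Ifng, from 50 kb before to 50 kb after its body (ENSMUSG00000055170.4, 118441046 to 118445892), the 12 lists held 0 peaks. Near Mdm1 (ENSMUSG00000020212.14, 118141811 to 118168997) there was 1 region of 184 bp, 37.4 kb upstream of the gene, in proximal WENR-minus replicate 2 alone. Its fold was 6.72, at percentile 64.6, and it held no motif. A region just outside the limit of 50 kb, 60.3 kb from Mdm1, was likewise in 1 library, proximal WENR-plus replicate 2, at percentile 37.4. On the other flank the nearest region outside the limit lay inside Ifngas1, a long noncoding RNA gene next to Ifng, at 118533242 to 118533879 and 87.6 kb from the body of Ifng. It was called in 5 proximal and 5 distal libraries, all but WENR-minus replicate 3 of each site. Its fold ran from 5.87 to 13.8 with a median of 8.03, and its percentile was 73.5 ± 27.7 (SD, n = 3) in proximal WENR-plus and 66.6 ± 10.3 (SD, n = 3) in distal WENR-plus. It held 5 motifs, and 9 of its 10 summits lay within 50 bp of one. The flank of the locus thus had a Cdx2 region called at both colon sites.

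Genes of these cytokine pathways, among them ligands, receptors, signalling genes and target genes, were looked at in 3 fixed lists with the same 50 kb rule. Over all 21911 protein-coding genes, 916 (4.18%) had a region called in every proximal and no distal library within 50 kb, 38 (0.173%) had one called in all 6 distal and no proximal library, and 2819 (12.9%) had one called in all 12. None of the 16 genes of the IL-22 axis, the 10 further genes of the IL-10 cytokine family and its receptors, or the 6 genes of the interferon-gamma axis had either of the first kinds. A region called in all 12 libraries lay near 2 of the 16, 2 of the 10 and 1 of the 6 genes, beside 12.9% of all genes, and nothing particular to the lists is read from these small counts.

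Il22ra1, the IL-22-binding receptor chain of epithelial cells, had such a region 0.903 kb outside its body, at chr4:135752661-135753355, with a mean fold percentile of 84.1 (69.3 to 93.2 over 12 libraries). The same region lay 44.9 kb from Ifnlr1, a receptor chain for lambda interferons. Fut2, a fucosyltransferase of the epithelial surface, had 2 such regions, 3.67 and 46.0 kb away, with mean percentiles of 74.9 (18.8 to 97.7) and 96.2 (91.0 to 99.7). Il24, a further cytokine of the IL-10 family, had 1 at a distance of 49.3 kb, and Ifngr2, a chain of the interferon-gamma receptor, had 3, of which 1 lay in the gene body. The Ifngr2 region in the gene body had a mean percentile of 79.7 but ran from 1.35 to 97.2, and the others had means of 91.7 and 96.5. The other receptor chains Il10rb and Ifngr1, the decoy receptor Il22ra2, and the other list genes, Reg3b, Reg3g, Socs3 and Stat3 among them, had none called in all 12.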

How the data were processed

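The 12 Cdx2 libraries were used, and 12 input libraries were not analysed here beyond their use as peak-calling controls. According to the study's methods, with versions from the submitters' processing notes (the study's own software list names other Bowtie2 and SAMtools versions), the authors trimmed reads (Trimmomatic 0.39), aligned them to mm10 (Bowtie2 2.4.5), removed duplicates (SAMtools 1.13) and called peaks per library against the matched input (MACS2 2.2.7.1, q-value 0.01). Reads with several equal alignments were counted at the stronger regions, but how they were placed was not given in the sources used here. The deposited lists give per peak a fold enrichment, which is a ratio of summit pileup to local background. For each summit the −log10 p, the −log10 q and a score (10 times −log10 q) were deposited by the authors as well. The lists hold no read counts per region, so no count test was run, and the lists give no total depth. Read totals and the share of reads in peaks per library are stated in the study's supplement and entered no calculation here. The lists held 5608 to 42192 peaks on the autosomes and sex chromosomes.

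Overlapping peaks (minimum 1 bp) were joined into consensus regions (Python 3.11.15, pandas 2.3.3). The fold percentile is the position of a peak's fold within its own list, which lessens but does not remove differences in depth and background. Pileups were solved from fold and p-value with a pseudocount of 1 and a Poisson tail (scipy 1.17.1), with an error of up to 0.543 in −log10 p for the peaks given here. The weakest peaks of a list were the 200 with the lowest −log10 q, of which those with a fold of at least 3 were used. The arms were aligned with blastn 2.17.0 on GRCm38.p6, and genes are those of GENCODE vM21. The rule on regions was tested on simulated lists. Tests were two-sided exact permutation tests that went through every arrangement (numpy 2.4.6). The medium tests measure the spread between 3 proximal libraries per medium. The copy test measures that between 3 proximal replicate numbers taken as lines.

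The members, regions and gene lists were chosen with earlier results of these data known. All 4 member genes are described, and regions called in at least 2 libraries are given with their values. List genes are described where a region called in all 12 libraries or at 1 site lay within 50 kb, and some others are named only as having none. The regions just outside the limit were added after their values were seen. Same-numbered proximal libraries of the 2 media deviated together (correlations 0.129, 0.138 and 0.335 over the regions called in all of them), though replicates 1 and 2 of different media did so nearly as much (0.107 and 0.0891). These values set replicate 3 apart but do not tell replicates 1 and 2 from each other. The copy test took a replicate number to mark a line, which these values do not settle. The medium tests used no pairing, and a fit with the replicate number as a block was an alternative. Other alternatives were a −log10 q of at least 5, lists of equal length, a summit limit of 150 bp, windows of 25 and 100 kb, −log10 q or log2 fold in place of the fold percentile, each replicate left out, and identical copies counted once, the last chosen after seeing the data.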

Additional observations from a re-analysis of the deposited data

How the results depend on the processing

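Of 42 alternatives, 38 kept the direction and side of the threshold (or, for counts, stayed within 1.5 times). The 5 regions of the locus became 2 in lists of equal length, the stronger region of each side, since both satellites and the region upstream of Mdm1 were not among the 5608 strongest peaks. Counting identical copies once, an alternative chosen after seeing the data, left 3 regions in the locus, of which 1 was called in every proximal and no distal library in place of 3. That count was 2 with a −log10 q of at least 5, in lists of equal length and with summits within 150 bp. With windows of 25 and 100 kb the locus held 4 and 7 regions. Leaving out 1 replicate number moved the copy difference in fold percentile between −0.480 and 0.382, and it turned positive (0.382) without replicate 1. With the replicate block the media differed by −1.01 and −0.718 at the Il22-side and Iltifb-side regions, as without it, each with an exact permutation p of 0.25, the smallest that 3 pairs allow, and the block changed no call. No test of the medium or of the copies passed its threshold under any alternative run, in designs that mostly could not reach it. Read depth, which the lists do not give, and the share of reads in peaks were not adjusted for, and this limits what the missing distal peaks can show.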
